A study of Rattus norvegicus with 42 samples.

Results

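The genes described here encode proteins that bring hexoses into the hepatocyte, regulate their use, and carry glucose and fructose through glycolysis in rat liver. The 7 members were taken by name from the pSer2 Pol2 table, namely Slc2a2, Gckr, Pfkl, Pfkfb1, Pfkfb3, Pklr and Khk, among 22929 genes with a row in the RNA-Seq counts. They had 22 rows, covering 14 distinct coding regions, of 60999 rows in the pSer2 Pol2 table, of which 38315 held tags. Of 3981 regions of GR (glucocorticoid receptor) enrichment, 10 were centred within 50 kb of a transcription start site (TSS) of 5 members, whereas Pklr and Pfkl had none within 100 kb.

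Male Sprague Dawley rats were adrenalectomised, so that every group, vehicle included, lacked adrenal corticosterone (CORT), and were then infused intravenously for 3 h. Pulsatile infusion (PULS) ran for 20 min in every 60 min at 1 ml/h, and constant infusion (CONS) ran without a break at 0.333 ml/h after a brief faster start. ChIP-Seq of GR, and of RNA polymerase II phosphorylated at serine 2 (pSer2 Pol2, the elongating form), used 2 libraries a group, each of 6 pooled rats, taken at the pulse peak (PEAK_140, 140 min), at the nadir (NADIR_180, 180 min), and under constant infusion at both times (CONS_140 and CONS_180). The ChIP vehicle (VEH) had 1 pulsatile library at 140 min and 1 at 180 min, treated as 1 group. RNA-Seq at 180 min used 3 libraries in each of CORT and VEH under both patterns. After surgery all rats had received subcutaneous dexamethasone, a synthetic glucocorticoid, and CORT in the drinking water, which was withdrawn before infusion. The ages were not given in the sources used here.

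The GR libraries held 2051977 to 6715803 tags, the pSer2 Pol2 libraries 4938473 to 9326927 tags and the RNA libraries 3956379 to 7777219 reads. All 8 hepatocyte markers, Alb among them, were present, with a summed level of 138500 to 192500 CPM (reads of the gene relative to the library total, scaled by the TMM factors of edgeR). The markers of other cell types summed to 264.5 to 481.2 CPM for Kupffer cells, 225.5 to 327.5 for endothelium, 36.54 to 76.26 for lymphocytes, 17.56 to 38.7 for stellate cells and 7.574 to 14.59 for cholangiocytes, of which Krt19 was at 0. The lymphocyte sum rested almost wholly on Ptprc, with a mean of 48.9 CPM over the libraries. The lymphocyte markers Cd8a and Ms4a1 had means of 1.08 and 0.373 CPM, and Cd3e, with 5 reads, was not tested. The part of the other cell types in the results was not tested. The 2 CONS_140 libraries of pSer2 Pol2 disagreed, and the calls in comparisons with CONS_140 depended strongly on which of them was kept. Many more regions were called with replicate 1 as the only CONS_140 library than with replicate 2.

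The hepatocyte takes up glucose through GLUT2, the product of Slc2a2, and Gckr encodes a regulatory protein of hepatic glucose use. Phosphofructokinase, of which Pfkl is the liver subunit, commits the sugar to glycolysis and is activated by fructose 2,6-bisphosphate, which the bifunctional enzymes encoded by Pfkfb1 and Pfkfb3 make and break down. Liver pyruvate kinase, from Pklr, catalyses the last step, and ketohexokinase, from Khk, phosphorylates fructose so that it enters below phosphofructokinase. Glucocorticoids act through GR, a transcription factor that binds DNA once it holds hormone, and in the liver they are known for promoting glucose output.

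The promoters below are the 250 bases before the RefSeq start in assembly GRCr8, a later build than the rn6 coordinates of the ChIP regions. They are shown because Gckr carried a GR region at its promoter, Pklr and Khk had less RNA under constant CORT, Slc2a2 had 4 GR regions around it, and Pfkfb1 changed most among the members. Capitals mark a match on either strand to AGAACA, the half-site of the GR element (read as TGTTCT on the other strand), in Gckr and Slc2a2, and in Pklr to the form of the carbohydrate response element, CACGNG and CNCGTG 5 bases apart. The Gckr sequence lies at chr6:30795628-30795877 on the minus strand, Pklr at chr2:176841014-176841263 on the plus strand, Slc2a2 at chr2:113540120-113540369 on the plus strand, Pfkfb1 at chrX:22941926-22942175 on the plus strand and Khk at chr6:31175482-31175731 on the minus strand.
Gckr: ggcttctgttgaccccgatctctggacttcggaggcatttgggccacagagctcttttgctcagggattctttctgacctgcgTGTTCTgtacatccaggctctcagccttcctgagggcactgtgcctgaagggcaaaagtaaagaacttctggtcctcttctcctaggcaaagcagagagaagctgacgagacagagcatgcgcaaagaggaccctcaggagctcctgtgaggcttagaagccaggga
Slc2a2: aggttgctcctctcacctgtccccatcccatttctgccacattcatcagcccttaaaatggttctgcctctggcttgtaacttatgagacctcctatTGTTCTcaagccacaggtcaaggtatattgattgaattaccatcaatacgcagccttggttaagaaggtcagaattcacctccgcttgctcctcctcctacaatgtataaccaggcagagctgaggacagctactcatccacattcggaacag
Pfkfb1: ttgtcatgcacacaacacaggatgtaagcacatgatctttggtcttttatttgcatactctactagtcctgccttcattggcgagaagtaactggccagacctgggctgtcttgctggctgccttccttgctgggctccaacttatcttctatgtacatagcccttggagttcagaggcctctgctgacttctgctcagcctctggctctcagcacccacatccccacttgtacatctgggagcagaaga
Pklr: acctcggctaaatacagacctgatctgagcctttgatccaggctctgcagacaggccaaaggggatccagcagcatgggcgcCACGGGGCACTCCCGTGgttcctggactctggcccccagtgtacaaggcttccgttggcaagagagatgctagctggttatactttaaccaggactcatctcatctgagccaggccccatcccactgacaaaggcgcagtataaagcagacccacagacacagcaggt
Khk: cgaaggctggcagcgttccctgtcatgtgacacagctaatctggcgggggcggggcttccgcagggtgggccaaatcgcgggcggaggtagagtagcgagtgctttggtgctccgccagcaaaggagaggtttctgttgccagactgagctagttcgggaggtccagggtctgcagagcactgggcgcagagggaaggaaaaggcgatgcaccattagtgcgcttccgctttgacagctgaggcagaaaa

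With the start base counted as 0, the half-site stood at -167 to -162 in Gckr and at -153 to -148 in Slc2a2. It occurred in 20.7% of 33469 promoter windows of 300 bases, and 2 of 7 members held it. The GR element core, GNACA and TGTNC 3 bases apart, was in 0.439% of windows and in 0 of the 7 members. The carbohydrate response element form stood at -168 to -152 of Pklr and in 0.0329% of windows, 11 in all, and it was added to the search after the values of Pklr had been seen. The E box CACGTG was in 6.42% of windows and, among the members, in that of Pfkfb3, at -42 to -37. Khk and Pfkfb1, like Pfkl, held none of these letters in this window.

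The RNA-Seq comparison asked which transcripts CORT changed by 180 min under each pattern. A gene was called where its Benjamini-Hochberg adjusted p in the edgeR quasi-likelihood test, taken over 14092 genes, was below 0.05 and the change exceeded 1.5-fold (0.585 on the log2 scale). Under PULS, 1 of 7 members was called higher, Pfkfb1, where 1.79% of all genes were called higher, and 0 were called lower. Under CONS, Pfkfb1 was again called higher, where 4.45% of all genes were, and Pklr and Khk were called lower, where 4.75% were. The members' median log2 change was 0.06 under PULS and 0.18 under CONS, beside -0.01 over all genes in each. In whole liver, fewer cells of a type and less RNA per cell cannot be told apart.

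**Figure D1:**
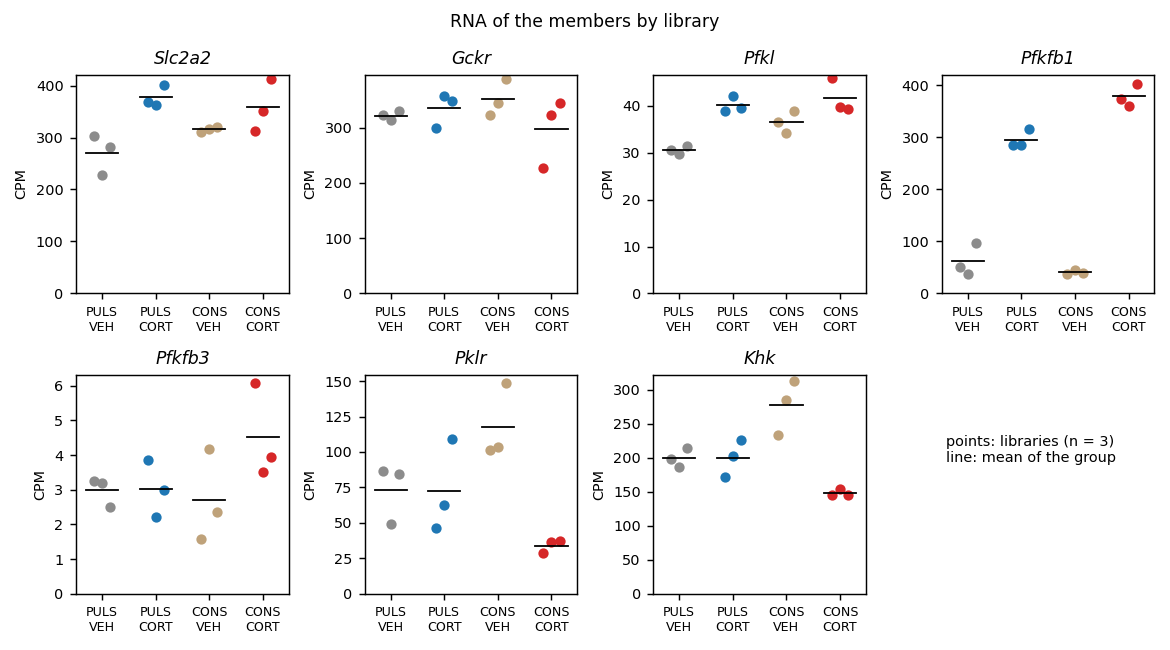
RNA level of each of the 7 genes in CPM on a linear axis from 0, set for each gene, with 1 point for each of 12 libraries at 180 min and a line for the mean of each group of 3. Pfkfb1 sat between 285 and 403 CPM in the 6 CORT libraries and between 37.9 and 96.9 CPM in the 6 VEH libraries, and Pklr and Khk were lower in every CONS CORT library than in every other.

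Pfkfb1, the liver bifunctional enzyme, rose under both patterns. Its RNA was 286, 285 and 316 CPM in the PULS CORT libraries and 50.0, 37.9 and 96.9 CPM in PULS VEH. It was 375, 361 and 403 CPM in CONS CORT and 38.2, 45.8 and 39.1 CPM in CONS VEH. No CORT library overlapped a VEH library, and the third PULS VEH library was the highest of the VEH libraries. The rise was 4.82-fold under PULS (log2 2.27 ± 0.23 SE, edgeR adjusted p = 3.93e-05) and 9.26-fold under CONS (log2 3.21 ± 0.24 SE, edgeR adjusted p = 2.97e-07). The responses differed by 0.94 ± 0.32 on the log2 scale, CONS minus PULS, which did not pass after adjustment (edgeR adjusted p = 0.219). The CORT groups themselves differed by 0.36 ± 0.22 (edgeR adjusted p = 0.602), and the VEH groups by 0.59 ± 0.24, PULS minus CONS (edgeR adjusted p = 0.483).

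Pklr, which encodes the pyruvate kinase of hepatocytes, fell under CONS. Its RNA was 28.4, 36.2 and 36.9 CPM in CONS CORT and 101, 103 and 148 CPM in CONS VEH. It was 46.2, 62.3 and 109 CPM in PULS CORT and 86.4, 48.9 and 84.6 CPM in PULS VEH. The CONS CORT libraries lay below all the others, while the PULS groups overlapped and were wide. The fall under CONS was 3.46-fold (log2 -1.79 ± 0.27 SE, edgeR adjusted p = 0.000332), and the log2 difference under PULS was -0.02 ± 0.27 (edgeR adjusted p = 0.977).

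Khk, the entry point of fructose, fell in the same group. Its RNA was 146, 155 and 145 CPM in CONS CORT and 233, 285 and 314 CPM in CONS VEH. In PULS CORT it was 172, 202 and 226 CPM, and in PULS VEH 198, 187 and 215 CPM. Again the CONS CORT libraries lay below all the others, and the CONS VEH libraries lay above all the others. The fall under CONS was 1.87-fold (log2 -0.90 ± 0.13 SE, edgeR adjusted p = 0.00023), and the log2 difference under PULS was 0.00 ± 0.13 (edgeR adjusted p = 0.999).

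For Pklr and Khk the difference of responses itself did not pass in edgeR. It was -1.77 ± 0.38 on the log2 scale for Pklr (edgeR adjusted p = 0.0721) and -0.90 ± 0.19 for Khk (edgeR adjusted p = 0.0711). DESeq2 called both, with adjusted p = 0.00117 for Pklr and 0.00113 for Khk, among 215 genes it called there, against 4 in edgeR. Of the 7 members 0 were called in edgeR, 3 had an unadjusted p below 0.05, and over all genes edgeR called 0.0284%. Between the CORT groups, Pklr was lower in CONS by 1.09 ± 0.28 on the log2 scale without passing in edgeR (adjusted p = 0.0752), and DESeq2 called it (adjusted p = 0.0076) among 209 genes, against 125 in edgeR. That comparison called 0 members in edgeR, with 2 at an unadjusted p below 0.05, beside 0.887% of all genes.

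The control groups bear on these responses. In PULS VEH, the level of Khk was lower than in CONS VEH by 0.47 ± 0.13 on the log2 scale (edgeR adjusted p = 0.347), and that of Pklr by 0.68 ± 0.26 (edgeR adjusted p = 0.459). Neither passed. Between the VEH groups, 0 members were called by edgeR or DESeq2, and 4 had an unadjusted p below 0.05, while edgeR called 0% of all genes and DESeq2 called 22 genes.

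The transporter Slc2a2 had 368, 363 and 402 CPM in PULS CORT and 302, 228 and 281 CPM in PULS VEH, so that the groups did not overlap. Its 1.4-fold higher level passed the adjusted p but stayed under the 1.5-fold threshold (log2 0.48 ± 0.13 SE, edgeR adjusted p = 0.038). Under CONS the CORT libraries held 313 to 412 CPM and the VEH libraries 310 to 320 CPM, and they overlapped (log2 0.18 ± 0.13 SE, edgeR adjusted p = 0.415).

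Gckr, the regulatory protein gene, ranged from 228 to 388 CPM over the 12 libraries, and CORT and VEH overlapped under both patterns. Its log2 change was 0.06 ± 0.14 under PULS and -0.24 ± 0.14 under CONS (edgeR adjusted p = 0.877 and 0.332). Pfkl, the phosphofructokinase subunit, had 38.9, 42.0 and 39.5 CPM in PULS CORT against 30.6, 29.8 and 31.5 CPM in PULS VEH, without overlap, but missed the threshold (log2 0.39 ± 0.11 SE, edgeR adjusted p = 0.0534). Its log2 difference was 0.19 ± 0.11 under CONS (edgeR adjusted p = 0.312). Pfkfb3, the inducible bifunctional enzyme, was scarce, with 9 to 30 reads a library and 1.59 to 6.09 CPM. Its log2 change was 0.03 ± 0.37 under PULS and 0.79 ± 0.34 under CONS (edgeR adjusted p = 0.976 and 0.155), and no change was detectable at this depth.

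Of 50 other genes of glycolysis, hexose transport, fructose and polyol use, pyruvate fate, their regulators and the opposing enzymes, 45 were tested. Under PULS 2 of the 45 rose, beside 1.79% of all genes, and 0 fell. These were the glycolytic mutase Pgam1 (log2 0.68 ± 0.13 SE, edgeR adjusted p = 0.0058) and the gluconeogenic enzyme Pck1 (log2 1.00 ± 0.17 SE, edgeR adjusted p = 0.00305). Under CONS 3 rose and 5 fell, beside 4.45% and 4.75% of all genes. The median log2 change of the 45 was -0.23 under CONS and 0.13 under PULS, beside -0.01 over all genes in each. These changes rest on different VEH groups, between which the median of the 45 was -0.18, PULS minus CONS. Between the CORT groups it was -0.20, CONS minus PULS. The genes that rose under CONS were Pck1 (log2 0.91 ± 0.17 SE, edgeR adjusted p = 0.00208), the bifunctional enzyme Pfkfb2 (log2 0.75 ± 0.13 SE, edgeR adjusted p = 0.000762) and the glucose transporter Slc2a1 (log2 1.17 ± 0.26 SE, edgeR adjusted p = 0.00551).

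Of the 5 that fell under CONS, 3 handle fructose or sorbitol, as Khk does. Among the 5 genes listed for fructose and polyol use, 2 fell. These were Tkfc, which phosphorylates glyceraldehyde from fructose (log2 -0.93 ± 0.25 SE, edgeR adjusted p = 0.0214), and sorbitol dehydrogenase, Sord (log2 -0.68 ± 0.12 SE, edgeR adjusted p = 0.000959). The fructose transporter Slc2a5 fell by 1.69 ± 0.47 on the log2 scale (edgeR adjusted p = 0.026). The lipogenic transcription factor gene Srebf1 fell by 1.54 ± 0.28 (edgeR adjusted p = 0.00148), and it was also lower in CONS CORT than in PULS CORT (log2 -1.48 ± 0.28 SE, edgeR adjusted p = 0.0202). Pdk4, the kinase that restrains pyruvate dehydrogenase, fell by 1.22 ± 0.26 (edgeR adjusted p = 0.00542).

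**Figure D2:**
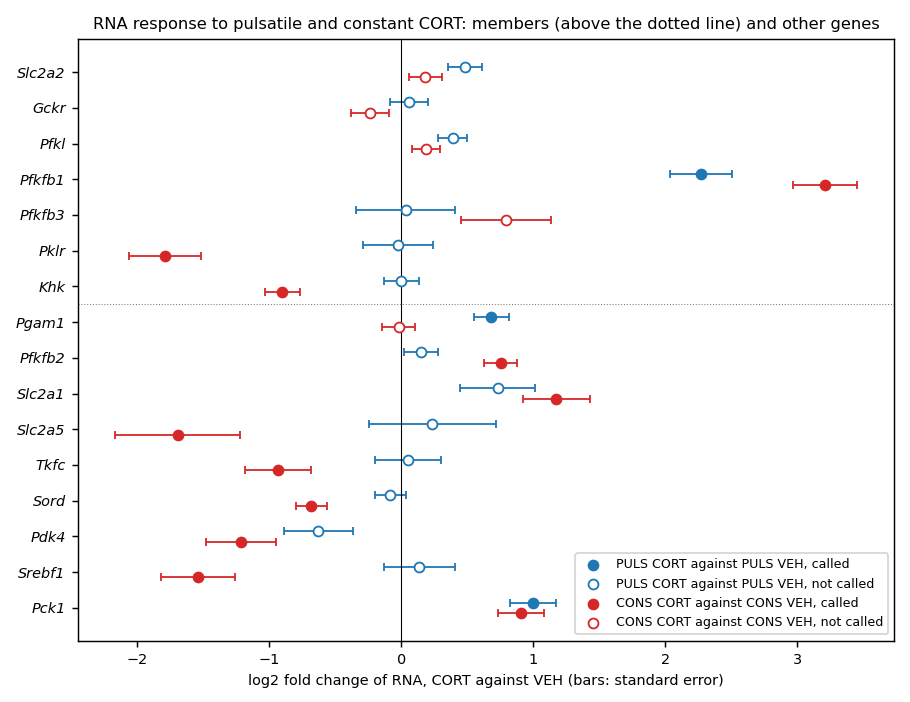
log2 fold change of RNA, CORT against VEH, for the 7 members (above the dotted line) and 9 other genes under PULS and CONS, with bars of 1 SE from edgeR, filled points for called changes and open points for the rest. Pfkfb1 lies at 2.27 and 3.21, and Pklr and Khk lie at -1.79 and -0.90 under CONS and at -0.02 and 0.00 under PULS.

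Across the 12 libraries, the gene whose log2 CPM ran most like that of each member was sought among 7303 genes of at least 10 CPM. It was the clock gene Per1 for Pfkfb1 (Pearson r = 0.984), the long-chain acyl-CoA synthetase gene Acsl1 for Pklr (r = 0.953), Zfp36l1 for Khk (r = 0.943), the mitochondrial pyruvate carrier gene Mpc2 for Pfkl (r = 0.941), Mlx for Slc2a2 (r = 0.92), Pofut1 for Gckr (r = 0.902) and Ube2b for Pfkfb3 (r = 0.846). These values are descriptive, since the libraries share 4 groups.

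Occupancy of pSer2 Pol2 was compared on the deposited log2 values, over up to 10 kb from the TSS, with limma and the same thresholds, adjusted over 38315 rows. The region with the highest mean stood for each gene, and the comparisons with VEH shared the same 2 libraries. In PEAK_140 against VEH, 2 of 14 regions were called higher, beside 0.365% of all rows. In CONS_140 against VEH it was 2 of 14 beside 0.592%, and in CONS_180 against VEH 2 of 14 beside 0.157%. In each case both were the overlapping regions of Pfkfb1. In NADIR_180 against VEH, limma called 0 of 14, with 5 at an unadjusted p below 0.05, and 0.00522% of all rows.

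**Figure D3:**
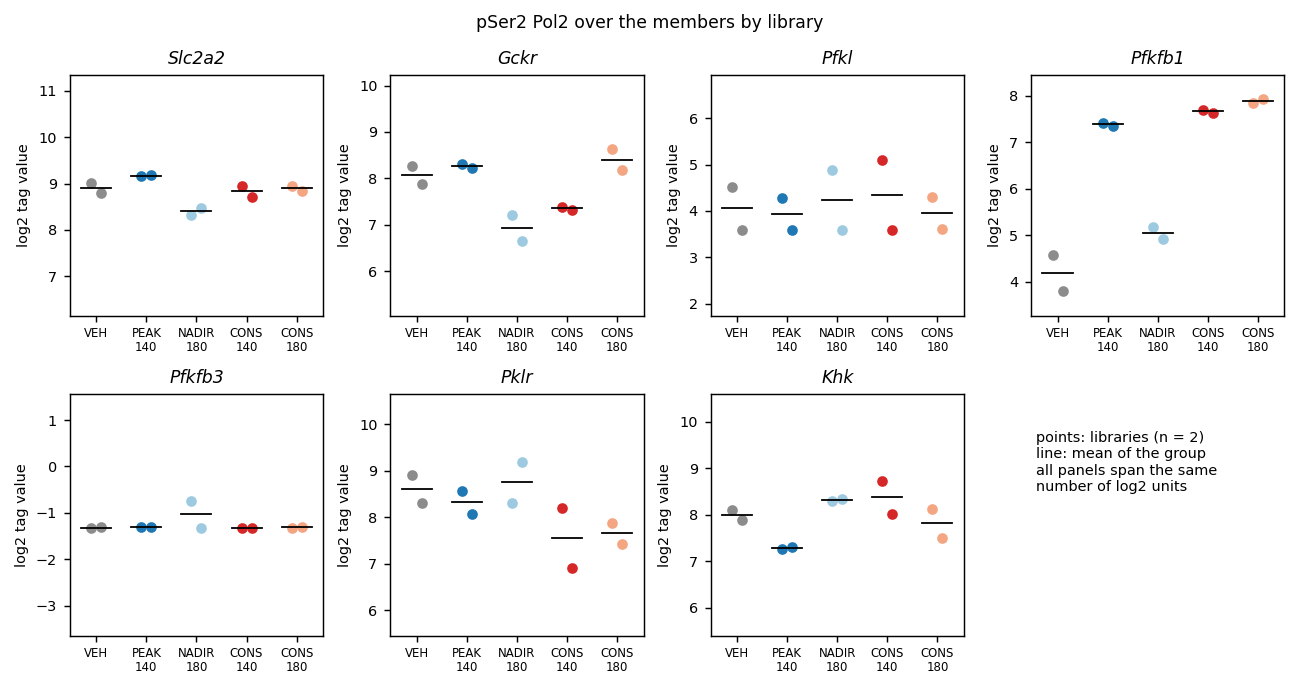
Deposited log2 pSer2 Pol2 value of the region standing for each of the 7 genes, with 1 point for each of 2 libraries in 5 groups and a line for their mean. Pfkfb1 lies between 7.35 and 7.93 in PEAK_140, CONS_140 and CONS_180 and between 3.79 and 5.18 in VEH and NADIR_180.

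At Pfkfb1 (chrX:23129694-23139694, minus strand, rn6, the first 10 kb of the transcript), the log2 values were 4.57 and 3.79 in VEH. They were 7.43 and 7.35 in PEAK_140, 5.18 and 4.91 in NADIR_180, 7.69 and 7.64 in CONS_140, and 7.84 and 7.93 in CONS_180. The peak and constant libraries all lay above the nadir and vehicle libraries. Against VEH the log2 value rose by 3.20 ± 0.34 in PEAK_140 (limma adjusted p = 0.00156), by 3.48 ± 0.34 in CONS_140 (limma adjusted p = 0.00112) and by 3.70 ± 0.34 in CONS_180 (limma adjusted p = 0.0015). In NADIR_180 the difference from VEH was 0.86 ± 0.34 and was not called (limma adjusted p = 0.9996), but both nadir libraries lay above both VEH libraries. At the other, overlapping Pfkfb1 region this difference was 1.22 ± 0.36, also not called. There PEAK_140 lay above NADIR_180 by 1.76 ± 0.36 without a call (limma adjusted p = 0.0718).

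Within PULS, Pfkfb1 was higher in PEAK_140 than in NADIR_180 by 2.34 ± 0.34 on the log2 scale (limma adjusted p = 0.0125), the 1 region called of 14, beside 0.243% of all rows called higher. With the replicate number as a block, both Pfkfb1 regions were called, 2 of 14, with adjusted p = 0.0095 and 0.0216 in limma. At 180 min, Pfkfb1 was higher in CONS_180 than in NADIR_180 by 2.84 ± 0.34 (limma adjusted p = 0.0066), and 2 of 14 regions were called, beside 0.164%. For CONS_140 against CONS_180 limma called 0 of 14, with 2 at an unadjusted p below 0.05, beside 0% of all rows. For PEAK_140 against CONS_140 it called 0 of 14, with 3 at an unadjusted p below 0.05, beside 0.0261%, and with the replicate block still 0 of 14, although the calls over all rows went from 10 to 747. Each of these Pfkfb1 calls, and each against VEH, was lost when the fit held only the 4 libraries compared. PEAK_140 against NADIR_180 lost its call at Pfkfb1 without any 1 of the 8 CORT libraries, with log2 differences of 2.20 to 2.47, PEAK_140 against VEH without VEH replicate 2 (2.81), and CONS_180 against VEH without either CONS_180 library (3.75 and 3.65). CONS_180 against NADIR_180 lost it without NADIR_180 replicate 1 and without any 1 of the 4 CONS libraries (2.79 to 2.97).

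Whether the change from 140 to 180 min differed between patterns was tested as PEAK_140 minus NADIR_180 less CONS_140 minus CONS_180. In limma 0 of 14 regions were called, with 6 at an unadjusted p below 0.05, beside 0.0574% of all rows. The values on the log2 scale were 2.56 ± 0.49 for Pfkfb1 (limma adjusted p = 0.114), 2.38 ± 0.48 for Gckr (limma adjusted p = 0.13), -1.60 ± 0.50 for Khk (limma adjusted p = 0.458) and 0.84 ± 0.40 for Slc2a2 (limma adjusted p = 0.604). Without CONS_140 replicate 2, the values were 2.53 for Pfkfb1, 2.35 for Gckr, -1.96 for Khk and 0.72 for Slc2a2. That fit held replicate 1 as the only CONS_140 library, so it had no spread within that group.

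The other members were not called in pSer2 Pol2 on the deposited scale, and their values are given by library. At Gckr (chr6:26375761-26385761, minus strand) the log2 values were 8.27 and 7.89 in VEH, 8.32 and 8.22 in PEAK_140, 7.20 and 6.65 in NADIR_180, 7.39 and 7.32 in CONS_140, and 8.62 and 8.17 in CONS_180. The nadir libraries were the lowest, and CONS_140 lay below CONS_180. The log2 difference of PEAK_140 from NADIR_180 was 1.34 ± 0.34 (limma adjusted p = 0.194). After each library had been centred on its median, limma called Gckr higher in PEAK_140 than in NADIR_180 (log2 1.44, adjusted p = 0.0271), in CONS_180 than in NADIR_180 (log2 1.52, adjusted p = 0.0432) and in the difference of time effects (log2 2.66, adjusted p = 0.0133), where 476, 152 and 272 of all rows were called, against 184, 65 and 22 without centring.

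At Khk (chr6:26810959-26820959, minus strand) the log2 values were 8.11 and 7.89 in VEH, 7.26 and 7.30 in PEAK_140, 8.29 and 8.35 in NADIR_180, 8.74 and 8.02 in CONS_140, and 8.12 and 7.51 in CONS_180. The PEAK_140 libraries were the lowest. Their log2 difference from NADIR_180 was -1.04 ± 0.35 (limma adjusted p = 0.539) and from CONS_140 -1.10 ± 0.35 (limma adjusted p = 0.299).

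At Pklr (chr2:188449718-188459592, plus strand) the log2 values were 8.90 and 8.30 in VEH, 8.58 and 8.08 in PEAK_140, 8.32 and 9.18 in NADIR_180, 8.20 and 6.92 in CONS_140, and 7.88 and 7.43 in CONS_180. The CONS libraries lay below both VEH libraries, but the CONS_140 libraries were far apart. The log2 difference from VEH was -1.04 ± 0.47 in CONS_140 (limma adjusted p = 0.536) and -0.95 ± 0.47 in CONS_180 (limma adjusted p = 0.999).

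At Slc2a2 (chr2:114413410-114423410, plus strand) the log2 values were 8.32 and 8.48 in NADIR_180 and 8.71 to 9.18 in the other 8 libraries. PEAK_140 differed from NADIR_180 by 0.77 ± 0.28 (limma adjusted p = 0.651), and at the region of a second TSS (chr2:114423533-114433533) by 1.44 ± 0.30 (limma adjusted p = 0.0859). Pfkl (chr20:11393877-11403877, plus strand) held 4.27 to 5.10 in the first library of each group and 3.59 or 3.60 in the second. Its values thus split by replicate number, and the second libraries hardly varied between groups. Whether these stood at a floor of the values was not tested. Pfkfb3 (chr17:70684134-70694134, plus strand) stayed near the floor of the values, between -1.34 and -0.75. Of the other listed genes, 45 had a pSer2 Pol2 region with tags, not in all cases those tested in RNA, and Pdk4 fell in pSer2 Pol2 in PEAK_140 (log2 -2.03 ± 0.32, limma adjusted p = 0.0119) and in CONS_140 (log2 -1.62 ± 0.32, limma adjusted p = 0.0477), where 0.624% and 0.196% of all rows were called lower. Its difference from VEH was -1.77 ± 0.32 in CONS_180 (limma adjusted p = 0.0633) and -1.19 ± 0.32 in NADIR_180 (limma adjusted p = 1), neither of them called.

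GR enrichment near the members was read in the same way, over 3981 regions. These regions were merged from the peaks that the authors called in the groups. Each of the 10 near the members was a peak in PEAK_140, CONS_140 or CONS_180 and not in VEH or NADIR_180. Higher GR in the peak and constant groups than in VEH or NADIR_180 was thus partly fixed by how the regions were chosen. In PEAK_140 against VEH, 8 of 10 regions were called higher, beside 78.6% of all regions. In CONS_140 it was 9 of 10 beside 64.7%, and in CONS_180 9 of 10 beside 67.9%. In NADIR_180 limma called 0 of 10, with 2 at an unadjusted p below 0.05, where 7.44% of all regions were called higher. In PEAK_140 against NADIR_180 it called 8 of 10 beside 68.8%, and in CONS_180 against NADIR_180 8 of 10 beside 49.6%. Most GR regions of the series were thus called in the same direction as those near the members in every one of these comparisons but NADIR_180 against VEH and CONS_180 against NADIR_180.

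The median log2 difference from VEH of the 10 regions was 4.29 in PEAK_140, 0.94 in NADIR_180, 3.74 in CONS_140 and 3.51 in CONS_180. Over all GR regions it was 4.17, 0.84, 3.38 and 3.46. The shift was thus shared with the median GR region, and after each library had been centred on its own median limma called 1 of 10 in PEAK_140 and 1 in CONS_180, both lower and at the region 29.4 kb from Khk, and 0 in CONS_140, and 23 of the called differences turned sign. The directions below are those of the deposited scale.

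**Figure D4:**
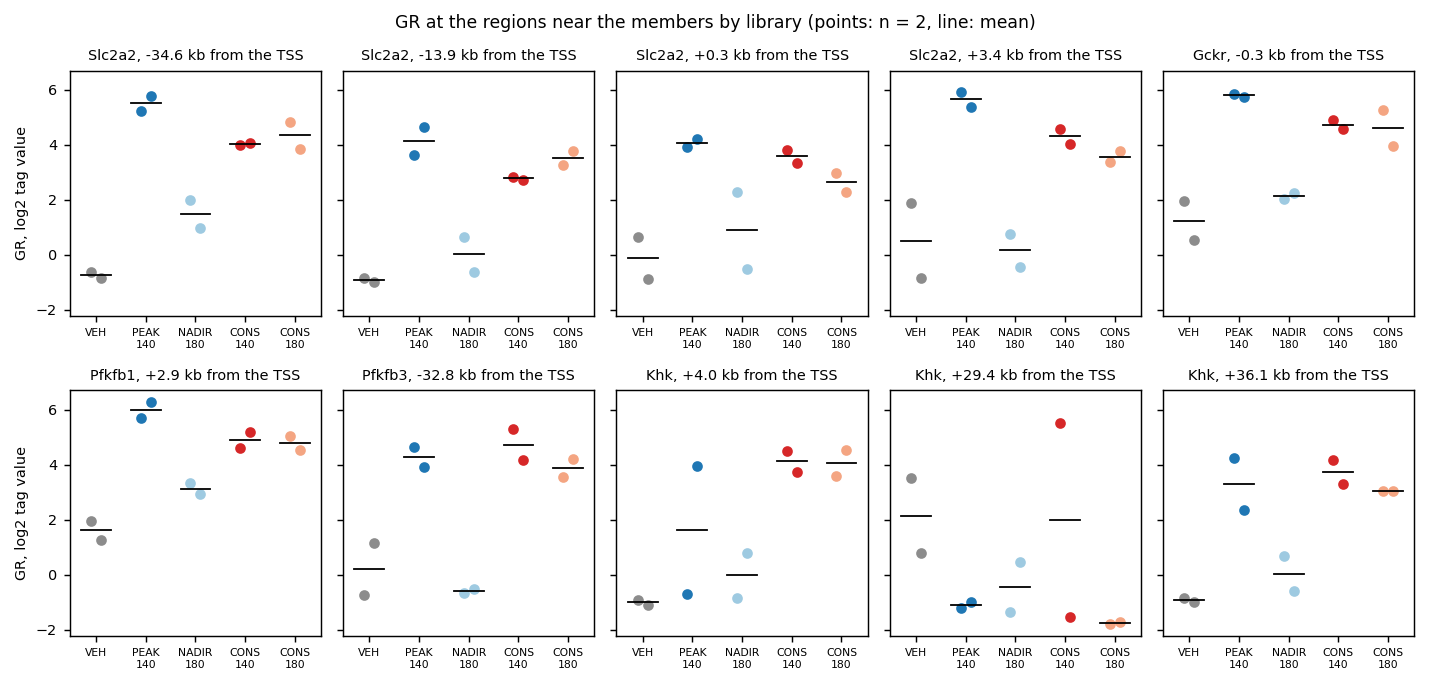
Deposited log2 GR value of the 10 regions within 50 kb of a member's TSS, with 1 point for each of 2 libraries in 5 groups and a line for their mean. At the Gckr promoter the PEAK_140 libraries lie at 5.74 and 5.86 and VEH and NADIR_180 between 0.55 and 2.26. After each library had been centred on its median value, the difference of PEAK_140 from VEH was near 0.

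At the Gckr promoter (chr6:26385674-26386457, centred 0.3045 kb before the TSS) the log2 GR values were 1.95 and 0.55 in VEH and 5.86 and 5.74 in PEAK_140. They were 2.03 and 2.26 in NADIR_180, 4.89 and 4.57 in CONS_140, and 5.26 and 3.96 in CONS_180. The nadir libraries lay near the vehicle libraries and below all the others. The rise was 4.55 ± 0.64 in PEAK_140 (limma adjusted p = 0.000309), 3.48 ± 0.64 in CONS_140 (limma adjusted p = 0.00152) and 3.36 ± 0.64 in CONS_180 (limma adjusted p = 0.00193), while NADIR_180 differed by 0.90 ± 0.64 (limma adjusted p = 0.517). After each library had been centred on its median value, the same differences were -0.066, -0.63 and -0.70. On the deposited scale the median differences over all GR regions were 4.17, 3.38 and 3.46. Centring subtracts the median value of a library, which is not the same as the median difference of the regions.

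In the first intron of Pfkfb1 (chrX:23136396-23137116, centred 2.94 kb inside the gene) the log2 GR values were 1.97 and 1.25 in VEH and 5.70 and 6.29 in PEAK_140. They were 3.33 and 2.93 in NADIR_180, 4.59 and 5.20 in CONS_140, and 5.04 and 4.52 in CONS_180. The nadir libraries lay between vehicle and the other CORT libraries. The rise was 4.38 ± 0.51 in PEAK_140 (limma adjusted p = 0.000125), 3.28 ± 0.51 in CONS_140 (limma adjusted p = 0.000638) and 3.17 ± 0.51 in CONS_180 (limma adjusted p = 0.000868). In NADIR_180 the difference was 1.52 ± 0.51 (limma adjusted p = 0.13). This region lies within the pSer2 Pol2 region of Pfkfb1 described above.

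Around Slc2a2 there were 4 regions. That 34.6 kb upstream (chr2:114378497-114379122, in an intron of another transcript) had log2 GR values of -0.64 and -0.83 in VEH, 5.23 and 5.77 in PEAK_140, 1.98 and 0.97 in NADIR_180, 4.00 and 4.05 in CONS_140, and 4.84 and 3.85 in CONS_180. It rose by 6.24 ± 0.62 in PEAK_140, the largest GR difference from VEH near the members (limma adjusted p = 5.87e-05), and differed by 2.21 ± 0.62 in NADIR_180 (limma adjusted p = 0.0694). The intergenic region 13.9 kb upstream (chr2:114399190-114399899) held 3.64 and 4.64 in PEAK_140 against -0.828 and -0.995 in VEH. The region in intron 1 (chr2:114416487-114417140, 3.40 kb inside the gene) held 5.92 and 5.38 in PEAK_140 against 1.88 and -0.85 in VEH. The region 0.277 kb inside the second TSS (chr2:114423489-114424130) held 3.91 and 4.20 in PEAK_140 against 0.67 and -0.87 in VEH. All 4 were called higher in PEAK_140, CONS_140 and CONS_180, with differences of 2.74 to 6.24 on the log2 scale.

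The intergenic region 32.8 kb upstream of Pfkfb3 (chr17:70650853-70651726) had log2 GR values of -0.73 and 1.14 in VEH, 4.64 and 3.91 in PEAK_140, -0.67 and -0.51 in NADIR_180, 5.27 and 4.16 in CONS_140, and 3.53 and 4.20 in CONS_180. The nadir libraries lay between the vehicle libraries. The log2 value rose by 4.07 ± 0.78 in PEAK_140 (limma adjusted p = 0.00147) and by 4.51 ± 0.78 in CONS_140 (limma adjusted p = 0.00114). The authors assigned this region to another gene, AC141172.1, at 4797 bases. The RNA of Pfkfb3 was too scarce, as given above, to show whether it changed.

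Khk had 3 regions, whose libraries agreed less. In its intron 2 (chr6:26816646-26817341, 3.97 kb inside the gene) the log2 GR values were -0.92 and -1.10 in VEH, -0.69 and 3.95 in PEAK_140, -0.85 and 0.80 in NADIR_180, 4.50 and 3.74 in CONS_140, and 3.60 and 4.53 in CONS_180. The PEAK_140 libraries disagreed, 1 lying with the vehicle libraries and 1 with the CONS libraries. The difference from VEH was called in CONS_140 (log2 5.13 ± 1.34, limma adjusted p = 0.00886) and in CONS_180 (log2 5.07 ± 1.34, limma adjusted p = 0.00952), and in PEAK_140 it was 2.64 ± 1.34 (limma adjusted p = 0.0966). PEAK_140 and CONS_140 were not shown to differ there (log2 -2.49 ± 1.34, limma adjusted p = 0.429).

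The region 36.1 kb away (chr6:26784597-26785124), in an exon and nearest to Preb, rose by 4.20 ± 0.82 in PEAK_140 and 4.64 ± 0.82 in CONS_140 (limma adjusted p = 0.00157 and 0.00124). That 29.4 kb away (chr6:26791328-26791855), nearest to Abhd1, was called in no comparison, and its libraries held 3.51 and 0.79 in VEH and 5.52 and -1.53 in CONS_140.

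Between the CORT groups, limma called 0 of 10 regions in CONS_140 against CONS_180, with 0 at an unadjusted p below 0.05, beside 0% of all regions, and 0 of 10 in PEAK_140 against CONS_140, with 1 at an unadjusted p below 0.05, beside 0.0502%. The change from 140 to 180 min differed between the patterns at 6 of 10 regions, beside 43.6% of all GR regions called in that direction. The members' median was 3.14 on the log2 scale and that of all GR regions 3.11. After centring on the median, 0 of 10 were called.

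The layers stood as follows at the members called in RNA. At Pfkfb1, GR and pSer2 Pol2 were high in PEAK_140, CONS_140 and CONS_180. At NADIR_180 both lay above the VEH libraries, but neither was called against VEH. RNA at the nadir time of 180 min was 296 ± 17.8 CPM (SD, n = 3) under PULS against 61.6 ± 31.1 CPM in VEH. At Khk, RNA was 148 ± 5.38 CPM under CONS against 277 ± 40.9 CPM in VEH, with no pSer2 Pol2 call. GR was called there in intron 2 in both CONS groups, where the PEAK_140 libraries disagreed. At the region 36.1 kb away it was called in PEAK_140, CONS_140 and CONS_180. At Pklr, RNA was 33.8 ± 4.69 CPM under CONS against 118 ± 26.7 CPM in VEH, with no GR region within 100 kb and no pSer2 Pol2 call.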

How the data were processed

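GR and pSer2 Pol2 ChIP-Seq (2 libraries a group) and RNA-Seq (3 a group) of rat liver were used. The authors trimmed ChIP reads with Trimmomatic 0.36, aligned them with bowtie2 to rn6, removed duplicates, called GR peaks with HOMER 4.9.1 and subtracted input. The ChIP values the authors deposited are log2 values per region, can be negative and shrink weakly tagged regions towards their own mean, which understates the changes of such regions. RNA values were deposited as raw counts per Ensembl gene from STAR and featureCounts 1.6.2. Columns of the authors' own comparisons (fold changes, p-values) were not used.

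ChIP values were fitted with limma 3.58.1 (empirical Bayes, variance trend), all 10 libraries of an assay in 1 model of 5 groups. Counts were fitted with edgeR 4.0.16 (quasi-likelihood, TMM, R 4.3.3), all 12 libraries, for genes with more than 10 reads in all. Tests were two-sided, with Benjamini-Hochberg adjustment over all features. The main limma and edgeR fits were run on simulated data with independent libraries, for 1 comparison with VEH in each assay. The differences of responses or time effects, DESeq2 and the other alternatives were not simulated. The members and gene lists were chosen with earlier results of these data known. The genes named are all members, the listed genes called in RNA or pSer2 Pol2, and for each member the gene of highest Pearson r, and 1 further gene that the rule names is not reported here. DESeq2 1.42.0, other filters, scalings and distances, left-out libraries and a replicate block were alternatives.

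The design text describes the ChIP replicates as separate experiments. Deviations of same-numbered pSer2 Pol2 libraries correlated in every pair of CORT groups (r = 0.155 to 0.553). They were taken as paired only in the replicate block, which held no VEH library. The main fits, and the adjusted p-values given without the block, took no account of pairs. Each ChIP library pools rats, and p-values measure only the spread between these libraries.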

Additional observations from a re-analysis of the deposited data

Results flagged for a closer look

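The change in GR from 140 to 180 min differed between PULS and CONS at 6 of the 10 regions, by a test of the difference itself in limma (PEAK_140 minus NADIR_180, less CONS_140 minus CONS_180, on the log2 scale). Around Slc2a2 it was 4.84 ± 0.99 at 13.9 kb upstream (adjusted p = 0.00899), 4.76 ± 1.27 in intron 1 (adjusted p = 0.0201) and 4.35 ± 0.88 at 34.6 kb upstream (adjusted p = 0.00869). It was 4.02 ± 1.11 at the region upstream of Pfkfb3 (adjusted p = 0.0223), 3.53 ± 0.90 at the Gckr promoter (adjusted p = 0.0178) and 2.75 ± 0.72 in intron 1 of Pfkfb1 (adjusted p = 0.0192). In each, PEAK_140 lay above NADIR_180 in every library, by 2.86 to 5.49 between the means, while CONS_140 and CONS_180 differed by -0.73 to 0.85 and were not called. Each of the 6 had entered the set of regions as a peak in PEAK_140 and not in NADIR_180, so that a higher PEAK_140 was partly fixed by that choice. Over all GR regions 43.6% were called in the same direction, with a median of 3.11, and after centring on the median none of the 6 was called. Leaving out 1 library at a time gave 2 to 7 regions, with 2 without CONS_180 replicate 1 and 3 without PEAK_140 replicate 1.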

How the results depend on the processing

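In GR, centring each library on its median left 1 of 10 regions called in PEAK_140, 0 in CONS_140 and 1 in CONS_180 against VEH, and 0 in PEAK_140 against NADIR_180, CONS_180 against NADIR_180 and the difference of time effects. By the construction of this setting, 23 called differences turned sign. Against VEH, in PEAK_140, CONS_140 and CONS_180 in turn, they became -0.066, -0.63 and -0.70 at Gckr, -0.24, -0.83 and -0.89 at Pfkfb1, and -0.46, -0.43 and -1.33 at the second TSS of Slc2a2. In PEAK_140 they became -0.54 at Pfkfb3 and -0.41 at Khk (36.1 kb), in CONS_140 -0.42 at Slc2a2 (13.9 kb) and -0.32 in its intron 1, and in CONS_180 -0.40 at Pfkfb3, -1.01 in intron 1 of Slc2a2 and -0.12 at Khk (36.1 kb). PEAK_140 against NADIR_180 became -0.575 at Pfkfb1, -0.28 at the second TSS of Slc2a2 and -0.17 at Khk (36.1 kb), CONS_180 against NADIR_180 became -0.42 at Gckr, -1.23 at Pfkfb1 and -0.00997 at Slc2a2 (34.6 kb), and the difference of time effects at Pfkfb1 became -0.64. Within 25 kb, 5 of 6 regions were called in PEAK_140 against VEH, PEAK_140 against NADIR_180 and CONS_180 against NADIR_180. In the upper part of regions by mean, 1 was called in NADIR_180 against VEH and 5 in CONS_180 against NADIR_180. With only the libraries compared, 5 were called in CONS_180 against NADIR_180. In pSer2 Pol2, with only the libraries compared, 0 regions were called in any of the 5 comparisons that had called Pfkfb1. PEAK_140 against NADIR_180 called 4 after centring (Gckr among them), 2 without a variance trend, 2 in the upper part and 2 with the replicate block. CONS_180 against NADIR_180 called 1 without the trend, and the difference of time effects 4 after centring and 1 in the upper part. In RNA, the difference of responses called 2 members (Pklr and Khk) with DESeq2 and with no filter. CONS CORT against PULS CORT called 1 (Pklr) with DESeq2, with no filter, with only the libraries compared and with the replicate block (edgeR adjusted p = 0.0344). The RNA numbers were not taken as pairs, since same-numbered libraries correlated at -0.049 to 0.081, nor were those of GR, at -0.027 to 0.072, and the block changed no other count of calls. Leaving out 1 library at a time gave in GR 8 to 9 calls in PEAK_140, 0 to 1 in NADIR_180, 8 to 10 in CONS_140 and 6 to 10 in CONS_180 against VEH, 7 to 8 in PEAK_140 against NADIR_180, 0 to 1 in CONS_140 against CONS_180, 2 to 8 in CONS_180 against NADIR_180 (2 without CONS_180 replicate 1, 4 without its replicate 2 or NADIR_180 replicate 2) and 2 to 7 for the time effects (2 without CONS_180 replicate 1, 3 without PEAK_140 replicate 1). In pSer2 Pol2 it changed the number of calls in each of the 5 comparisons that had called Pfkfb1, and in PEAK_140 against CONS_140. It changed that of the time effects most without CONS_140 replicate 2, a fit in which the calls over all rows also rose far above the main fit, mostly as lower values. In RNA it gave 1 under PULS, 3 to 4 under CONS (with Pfkfb3 when CONS VEH replicate 2 was left out), 0 to 2 for the difference of responses (2 without CONS VEH replicate 1 or PULS CORT replicate 1) and 0 to 1 between CORT groups (1 without PULS CORT replicate 1 or PULS VEH replicate 2). The causes of these shifts were not tested. Groups of 2 ChIP libraries, the floor of weak regions and the low counts of Pfkfb3 limit what could be detected.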
